A study of Caenorhabditis elegans with 2 samples.

Results

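The 807 distal intergenic summits of eGFP-GMEB-1 were the regions of the irreproducible discovery rate (IDR) list, the list kept after comparing both replicates, that lay away from protein-coding genes. The summit of a member, its highest point, lay in no protein-coding gene and outside the window around every protein-coding start, which reached 1000 bp upstream and 200 bp downstream. They made up 807 of 3909 IDR regions (20.6%), against 2545 in promoter windows (65.1%) and 557 in genes away from promoter windows (14.2%). The sequence that met the position rule, called eligible sequence below, covered 25.1 Mb or 25.1% of the nuclear genome. The label intergenic refers to protein-coding genes: 90 of the 807 summits lay inside an annotated non-coding gene or pseudogene, and 717 lay in no gene of any kind. The members were chosen by position and by their place in the IDR list, so neither their number nor a distance above the window is a result.

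The samples were 2 biological replicates of chromatin immunoprecipitation and sequencing (ChIP-seq) from mixed-sex L2 larvae of Caenorhabditis elegans strain OP343. All animals carried the unc-119(ed3) allele on chromosome III and the insertion wgIs343, which carries eGFP-tagged gmeb-1, and the antibody is labelled gmeb-1. Whole animals were used, so a region can come from any tissue, and the tagged protein is a transgene product. There was 1 group with 2 replicates and the same listed control, so no comparison of conditions and no test was possible, and all values below are descriptions. No read counts were given, so depth is unknown.

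GMEB-1 has a SAND domain, a DNA-binding fold, and is related to glucocorticoid modulatory element binding proteins of mammals. Distal regulatory elements are stretches of DNA away from promoters where transcription factors bind, and they often act on a gene some distance away. RNA polymerase III genes, such as those for transfer RNAs (tRNAs), have control elements inside the transcribed sequence, among them the B box, and many lie in the gaps between protein-coding genes. In hermaphrodite worms the dosage compensation complex loads onto the X chromosome at recruitment sites, many of which lie between genes and hold a motif with the core GCGCAGGG.

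The sequence GCGCAGGG lay within 50 bp of the summit in 10 members, and all 10 were on X (10 of 183 members on X, 5.46%, and 0 of 624 on autosomes). The share was 1.24% of members, against 0.46% of the whole IDR list, in which the 8 other summits with it were also on X. Those 8 were among 420 other IDR summits on X (1.9%). Of the 8, 4 were promoter summits and the rest were in genes, so the sequence was not particular to distal summits. On X its share in genes lay between those of promoter summits and members, and all these counts are small. Among lower-ranked pooled regions that met the same position rule, it lay near 1 of 1108 summits on X and 6 of 4678 on autosomes. The 10 windows of 101 bp are shown because they were the only members with this sequence, which was chosen after the members' sequences had been looked at. Each runs 5′ to 3′ on the strand that reads GCGCAGGG, in capitals, and each is named by its nearest protein-coding start. Sequences are from the RefSeq genome of build WBcel235 (ce11).
W02H3.3, chrX:11094123-11094223, minus strand: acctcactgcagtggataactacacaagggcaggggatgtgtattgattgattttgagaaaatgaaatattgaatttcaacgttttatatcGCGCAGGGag
gtr-1, chrX:806630-806730, plus strand: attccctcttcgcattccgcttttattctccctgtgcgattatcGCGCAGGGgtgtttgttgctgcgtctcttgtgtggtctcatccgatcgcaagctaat
F20B6.9, chrX:4209215-4209315, minus strand: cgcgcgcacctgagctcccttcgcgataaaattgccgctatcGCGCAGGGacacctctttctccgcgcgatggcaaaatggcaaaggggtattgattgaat
xol-1, chrX:8036398-8036498, plus strand: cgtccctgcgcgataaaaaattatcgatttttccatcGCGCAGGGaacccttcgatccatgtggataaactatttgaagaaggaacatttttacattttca
T24D8.6, chrX:2364849-2364949, minus strand: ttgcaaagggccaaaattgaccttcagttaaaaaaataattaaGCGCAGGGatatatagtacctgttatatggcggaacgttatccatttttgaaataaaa
col-185, chrX:13514525-13514625, plus strand: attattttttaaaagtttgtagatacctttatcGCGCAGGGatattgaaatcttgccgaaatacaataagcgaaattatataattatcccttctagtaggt
dpy-23, chrX:4395585-4395685, plus strand: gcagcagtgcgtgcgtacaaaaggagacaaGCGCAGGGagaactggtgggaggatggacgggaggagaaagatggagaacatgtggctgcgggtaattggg
F20B6.9, chrX:4208683-4208783, plus strand: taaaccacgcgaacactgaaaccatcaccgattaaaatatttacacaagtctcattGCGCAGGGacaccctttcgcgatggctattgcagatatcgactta
WBGene00020828, chrX:1837854-1837954, plus strand: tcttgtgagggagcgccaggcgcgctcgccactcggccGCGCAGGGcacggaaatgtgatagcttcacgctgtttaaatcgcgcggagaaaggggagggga
got-2.2, chrX:6250292-6250392, minus strand: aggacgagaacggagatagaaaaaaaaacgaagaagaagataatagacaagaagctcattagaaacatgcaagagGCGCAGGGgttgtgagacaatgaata
The xol-1 window holds 2 copies, with the second, in lower case near its start, on the other strand; the other windows hold 1 each. In 5 of the 10 windows the letters ATC stood directly before the capitals, and in 7 an A followed it. The first capital lay within 20 bp of the summit in 8 of the 10. F20B6.9 names 2 windows because 2 members 532 bp apart lay upstream of it.

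Other sequences recurred in members on several chromosomes. The next windows show AGACGCAG, also chosen after the sequences had been seen, then CACGTG, the E-box bound by basic helix-loop-helix factors, then the B box GTTCGANNC inside tRNA genes, and last GATAAG, the core of sites bound by GATA factors. The windows are examples from the stronger members with each sequence, which is in capitals.
T04C4.3, chrIV:2219596-2219696, minus strand: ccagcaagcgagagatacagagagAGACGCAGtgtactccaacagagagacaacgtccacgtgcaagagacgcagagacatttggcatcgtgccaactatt
Y17G7B.17, chrII:12102508-12102608, plus strand: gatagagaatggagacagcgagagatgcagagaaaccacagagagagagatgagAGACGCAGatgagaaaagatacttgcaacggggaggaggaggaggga
sup-35, chrIII:11110902-11111002, minus strand: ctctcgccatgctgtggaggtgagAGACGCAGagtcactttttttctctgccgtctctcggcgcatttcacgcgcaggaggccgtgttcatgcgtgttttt
mdl-1, chrX:6743979-6744079, plus strand: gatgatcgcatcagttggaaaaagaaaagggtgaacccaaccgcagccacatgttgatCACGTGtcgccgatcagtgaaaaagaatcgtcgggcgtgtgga
tpra-1, chrIV:8949803-8949903, plus strand: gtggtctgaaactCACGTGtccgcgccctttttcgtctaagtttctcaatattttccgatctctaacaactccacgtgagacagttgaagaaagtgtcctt
srd-43, chrX:13307004-13307104, plus strand: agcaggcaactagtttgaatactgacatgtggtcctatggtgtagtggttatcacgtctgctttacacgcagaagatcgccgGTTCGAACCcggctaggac
ets-5, chrX:5085573-5085673, minus strand: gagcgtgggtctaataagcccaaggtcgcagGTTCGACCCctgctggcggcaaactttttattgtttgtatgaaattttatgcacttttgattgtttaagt
twk-21, chrX:16298321-16298421, plus strand: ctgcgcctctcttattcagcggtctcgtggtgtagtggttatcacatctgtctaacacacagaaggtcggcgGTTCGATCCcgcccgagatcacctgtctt
ges-1, chrV:1433242-1433342, minus strand: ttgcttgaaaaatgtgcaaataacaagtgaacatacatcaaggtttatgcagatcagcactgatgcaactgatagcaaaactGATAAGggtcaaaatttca
The first window also held a second copy of agacgcag and 1 of cacgtg, and the tpra-1 window a second copy of cacgtg, all in lower case. The windows named by srd-43, ets-5 and twk-21 lie in the tRNA genes R04D3.t2 (tRNA-Val), C42D8.t1 (tRNA-Ile) and T01B4.t1 (tRNA-Val), and their capitals are the B box. In the srd-43 window the B box letters also match on the other strand, at overlapping bases.

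Signal, the height that the authors' caller gave each region, was used only to rank regions within a list. Members had a median signal of 59.2 (38.7 to 1074), against 79.5 in promoter windows (38.7 to 2077) and 58.6 in genes. The median rank in the IDR list was 2352 for members and 1656 for promoter summits, where rank 1 is the strongest. Lower-ranked pooled regions that met the position rule numbered 5786 and had a median signal of 10.9 (6.10 to 38.7). Distal summits thus stood lower in the list than promoter summits, with single exceptions near its top.

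The strongest member, with a signal of 1074, was rank 19 of the IDR list at I:17025. It ranked 58 in replicate 1 and 18 in replicate 2, and lay between the 3′ ends of nlp-40, a neuropeptide gene of the intestine, and rcor-1. The member 1155 bp upstream of ges-1, a gut esterase gene, at V:1433292, had a signal of 645.9 in the IDR list. It ranked 1 in replicate 1, with the highest signal of that list (191.1), and 113 in replicate 2 (542). It was part of a region 1909 bp wide, and the nearest other IDR summit, 651 bp away, was in a promoter window. The top region of replicate 1 also overlapped the region of a promoter summit, so rank 1 was not the member's alone. Farther upstream of ges-1, 2 weaker members followed, at 2467 and 3120 bp. Both of these weaker members lay inside the pseudogene fbxa-195. These ranked 144 and 501 in replicate 1 and 3336 and 3865 in replicate 2, so all 3 stood higher in replicate 1.

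Other members near the top of the list lay at unnamed protein-coding genes. The member 1805 bp upstream of F53E10.5, at V:2600735, had a signal of 748.2, and ranked 800 in replicate 1 and 55 in replicate 2. The member at II:6061709 had a signal of 645.6, with ranks of 504 in replicate 1 and 87 in replicate 2. It lay 189 bp from the pseudogene R12C12.8 and 268 bp from the edge of H12I13.1. The member at I:2639756, 1107 bp downstream of the start of F40E3.3, had a signal of 583.1, with ranks of 715 in replicate 1 and 102 in replicate 2. By the worse of their ranks in the replicates, the best 5 members were those at nlp-40 (58), ges-1 (113), W02H3.3 (185), F55G7.5 (186) and ZK899.6 (229). The 3 at F53E10.5, H12I13.1 and F40E3.3 were among the strongest in replicate 2 and well down the list of replicate 1, the opposite order to the members at ges-1.

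The X chromosome held 9 of the 15 strongest members and 13 of the 20 strongest (65.0%), against 0 of the 100 strongest promoter summits. These sets differ in signal, with a minimum of 308.2 in the 20 members and 597 in the 100 promoter summits. Promoter summits 101 to 200 (signals 414.3 to 596) included 1 on X, and the 200 after them (245.6 to 412.7) included 4. In rank order, the 13 X members started with the one at X:11094173 near W02H3.3, which had a signal of 507.4 and ranked 6 in replicate 1 and 185 in replicate 2. The one at X:11937537 near F55G7.5 had a signal of 506.4, with ranks of 11 in replicate 1 and 186 in replicate 2. The one at X:8036448 lay 4865 bp upstream of xol-1, the switch gene of sex determination and dosage compensation, with a signal of 386.8 and ranks of 9 in replicate 1 and 316 in replicate 2. A weaker member 199 bp away, with a signal of 78.4, overlapped the same replicate regions. All 13 were within the 150 highest-ranked regions of replicate 1 (the lowest rank was 146, near T24D8.6), while in replicate 2 their ranks ran from 185 to 393.

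The remaining X members of the 15 strongest lay near ZK899.6 (signal 437.9), K02D3.1 (429.7), gtr-1, a gene for a receptor-like membrane protein (415.1), F19H6.5 (411.2), F22H10.2 (407.8) and F20B6.9 (400.2). They held ranks between 13 and 49 in replicate 1, and between 229 and 266 in replicate 2. None of the 9 had an annotated non-coding gene or pseudogene within 200 bp, and 4 of the 9 held GCGCAGGG in the windows printed above: those near W02H3.3, gtr-1, F20B6.9 and xol-1. Of the 10 members with GCGCAGGG, 8 were among the 100 strongest members. The weakest of the 10, near got-2.2, a transaminase gene, had a signal of 40.9, ranked 3291 in replicate 2 and overlapped no region of replicate 1.

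At equal rank in the IDR list, distal summits lay on X more often than promoter summits in the upper ranks. Among IDR ranks 1 to 1000, 29 of 93 distal summits were on X (31.2%), against 38 of 845 promoter summits (4.50%). For ranks 1001 to 2000 it was 55 of 220 distal summits and 84 of 631 promoter summits (13.3%). For ranks 2001 to 3000 the shares were 18.8% of distal and 16.7% of promoter summits, and for ranks 3001 to 3909 they were 21.3% of distal and 18.3% of promoter summits. Summits in genes were on X at shares of 11.3%, 17.45%, 20.7% and 24.7% over the same ranges, in order. They were thus above promoter summits in every range. Against distal summits they were lower among the first 2000 ranks and higher after them. For scale, X held 22.8% of the eligible sequence and 14.8% of the promoter sequence. Among ranks after 2000 the distal share was close to the share of eligible sequence on X. Among the first 2000 ranks the distal share was higher than its sequence share, and the promoter share was lower than its own.

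**Figure D1:**
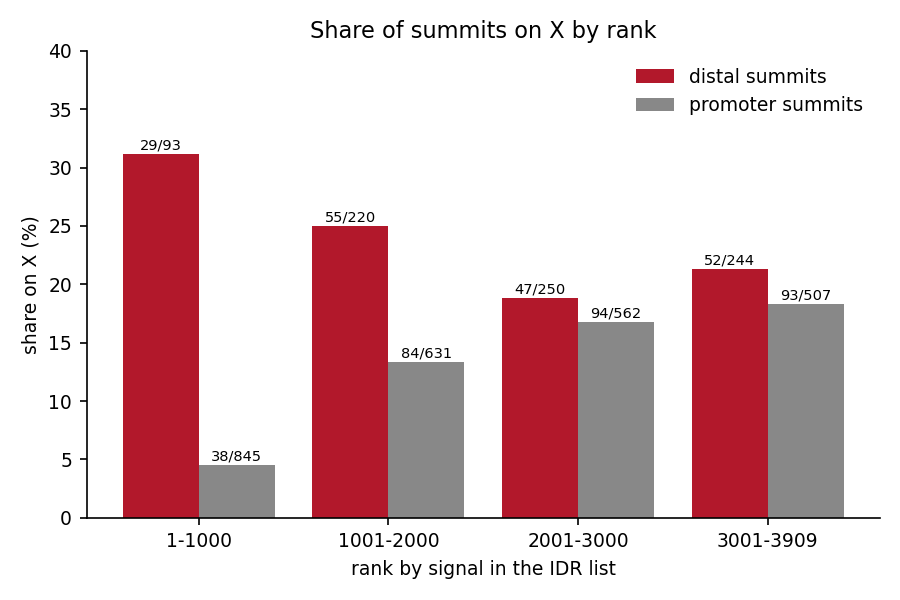
Share of summits on the X chromosome (y axis, percent) in 4 ranges of rank by signal in the IDR list (x axis), for distal summits (red) and promoter summits (grey); the numbers above the bars are summits on X over all summits of the class in that range. The bars stand furthest apart among ranks 1 to 1000, at 31.2% of distal and 4.50% of promoter summits, and closest among ranks 2001 to 3000. Summits in genes are not shown.

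The concentration on X at the top of the list was seen in each replicate's own list. Of the 3909 highest-ranked regions of each replicate, 889 in replicate 1 and 804 in replicate 2 met the position rule. The 50 strongest of these included 22 on X in replicate 1 (44.0%) and 19 in replicate 2 (38.0%), beside 18 of the 50 strongest members of the IDR list (36.0%). The 50 strongest promoter summits included 7 on X in replicate 1 and 0 in replicate 2. The replicates thus shared the higher X share at distal summits, and differed in how many strong promoter summits lay on X.

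Counted per length of sequence, X did not stand apart. There were 183 members on X, or 32.0 per Mb of eligible sequence, and 624 on the autosomes, or 32.2 per Mb. The highest density was on III with 45.1 per Mb (126 members) and the lowest on V with 25.1 per Mb (130 members). Chromosome I had 36.5 (103), II had 32.4 (116) and IV had 29.7 (149). Promoter summits per Mb of promoter sequence followed nearly the same order, from 142 on III to 73.6 on V, with 79.9 on X. Distal summits were 30.4% of all IDR regions on X and 18.9% of those on the autosomes.

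**Figure D2:**
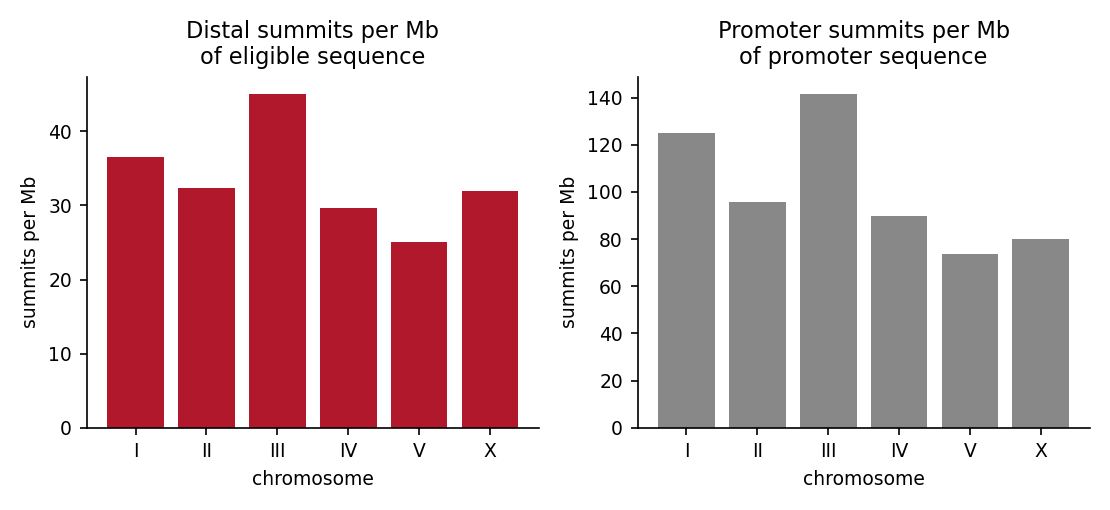
Distal summits per Mb of eligible sequence (left, red) and promoter summits per Mb of promoter sequence (right, grey) for each chromosome; both y axes start at 0 and have different scales. Chromosome III is highest in both panels, at 45.1 distal and 142 promoter summits per Mb, and X lies near the middle on the left and next to lowest on the right.

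On the density of X the replicates differed: 43.5 of replicate 1's own distal summits per Mb lay there, against 31.8 of replicate 2's. On the other chromosomes the replicates' densities were closer, for example 46.5 in replicate 1 and 42.9 in replicate 2 on III. Within the autosomes, members were denser in the centre of each chromosome, with 38.7 per Mb, than in its arms, the outer 25% at either end, with 26.5 per Mb. On X the centre had 30.8 and the arms 32.9 per Mb. The median signal of members was 63.4 on X and 57.5 on the autosomes, while that of promoter summits was 59.5 on X and 85.99 on the autosomes.

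**Figure D3:**
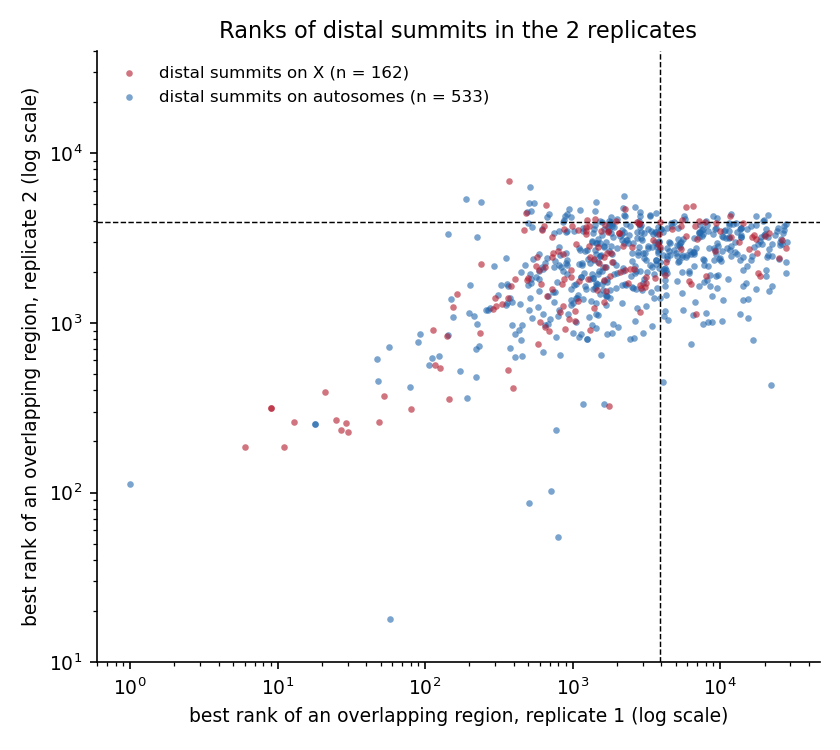
Best rank of a region overlapping each distal summit's region in replicate 1 (x axis) and replicate 2 (y axis), both on log scales, for the 695 members found in both relaxed lists, on X (red) and on autosomes (blue); dashed lines mark rank 3909. Most points lie below the horizontal line, many lie right of the vertical line, and most of the points with ranks under 50 in replicate 1 are on X.

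Members were found in replicate 2 more often than in replicate 1. A member counted as found where its region overlapped, by at least 1 bp, one of the 3909 highest-ranked regions of a replicate. In replicate 1, 465 of 807 members were found (57.6%), against 55.0% of the whole IDR list. In replicate 2, 741 members were found (91.8%), against 93.8% of the whole IDR list. Both replicates held 422 members (52.3%), against 51.2% of the whole list, so members were close to the list as a whole in each count. The other members were found in replicate 2 alone (319), in replicate 1 alone (43) or in neither (23). The pooled signal had a maximum of 2077, near the 1996 of replicate 2 and far from the 191.1 of replicate 1. All 1000 regions at IDR ranks 1 to 1000 were found in replicate 2, so recovery there is not independent of how the list was ranked.

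At equal rank, promoter summits were the class found least often in replicate 1, and distal summits and summits in genes were found more often. Equal rank here means rank by the signal of the IDR list, whose scale was near that of replicate 2. Among IDR ranks 1 to 1000 the shares were 93.5% of distal summits, 76.2% of promoter summits and 80.6% of summits in genes. Among ranks 1001 to 2000 they were 76.4% of distal summits, 62.8% of promoter summits and 83.2% of summits in genes. Among ranks 2001 to 3000, 125 of 250 distal summits were found, against 35.6% of promoter summits and 52.7% of summits in genes. Among ranks 3001 to 3909 the shares were 34.8% of distal summits, 22.1% of promoter summits and 38.6% of summits in genes. Distal summits were thus above summits in genes in the first of these ranges and below them in the other 3. On X, 68.3% of members were found in replicate 1 and 91.8% in replicate 2. On the autosomes, 54.5% were found in replicate 1 and 91.8% in replicate 2. Over the 695 members with a region in both relaxed lists, the ranks of the replicates had a Spearman correlation of 0.40, with 0.57 over 162 members on X and 0.35 over 533 on autosomes; these regions share a control and were all chosen for agreement between the replicates.

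Some members shared a rank because 1 replicate region overlapped several of them. The members at II:5543558 and II:5543758 both overlapped the region of rank 18 in replicate 1 and that of rank 253 in replicate 2. Their own signals were 419.1 and 165.7. They flank sls-2.2, a gene for an SL2 spliced leader RNA, 40 bp upstream and 51 bp downstream of it, and their nearest protein-coding start is ins-13, an insulin-like gene. Another member, at II:5544320 with a signal of 93.6, lay 47 bp upstream of the SL2 gene sls-2.3 and ranked 367 in replicate 1 and 1652 in replicate 2.

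A non-coding gene or pseudogene lay within 200 bp of 237 members (29.4%), against 19.0% of the whole IDR list. The share was 507 of 3102 other IDR summits (16.3%) and 21.0% of lower-ranked eligible regions. Promoter summits made up most of the other IDR summits and held 343 of the 507, at a share of 13.5%. The rest of the 507 lay in genes, where the share was about that of members. Without piRNA genes, which are small and dense in clusters on IV, it was 27.6% of members, 15.3% of other IDR summits and 14.9% of lower-ranked regions. The classes differed in direction: tRNA, snoRNA and unclassified ncRNA genes were more often near members than near lower-ranked regions, and piRNA genes and pseudogenes were more often near lower-ranked regions, though less often near other IDR summits.

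**Figure D4:**
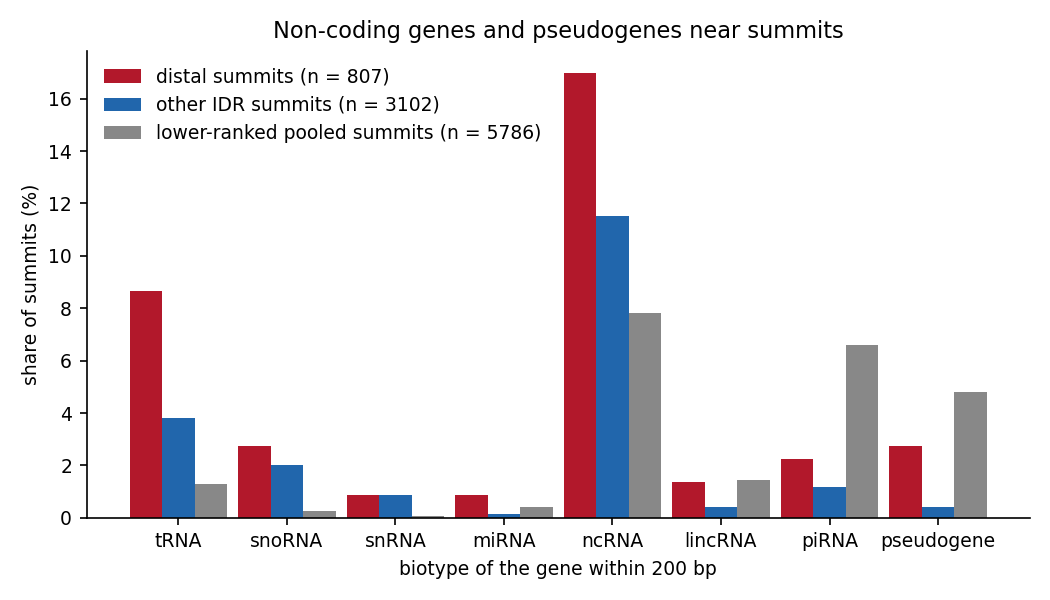
Share of summits (y axis, percent) with a gene of each biotype (x axis) within 200 bp, for 807 distal summits (red), 3102 other IDR summits (blue) and 5786 lower-ranked pooled summits that met the same position rule (grey). The tRNA bars stand at 8.67%, 3.80% and 1.28%, while for piRNA genes and pseudogenes the grey bar is the highest. The blue bars pool promoter summits, with a tRNA share of 1.69%, and summits in genes, with a tRNA share above that of members.

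tRNA genes lay within 200 bp of 70 members (8.67%), against 4.81% of the whole IDR list. The share was 118 of 3102 other IDR summits (3.80%) and 1.28% of lower-ranked eligible regions. Of the 118, 43 were promoter summits, at a share of 1.69%. The rest were among the 557 summits in genes, where the share was higher than in members. Of 231 tRNA genes whose middle lay in eligible sequence, 76 had a member within 200 bp (32.9%). X held 37 of the 70 members and 276 of the 612 nuclear tRNA genes. The summit lay inside the tRNA gene in 22, upstream of it in 46 and downstream in 2, at a median distance of 20 bp.

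The isotypes were mixed. tRNA-Lys genes were near 10 members, tRNA-Val near 7, and tRNA-Arg and tRNA-Gly near 6 each, out of 18 isotypes seen. The strongest was at X:3036109, 55 bp upstream of M02F4.t1 (tRNA-Gly), with a signal of 155.2 and ranks of 113 in replicate 1 and 911 in replicate 2. The next was at IV:5967153, 7 bp upstream of B0350.t1 (tRNA-Lys) in the gap between K02B2.6 and unc-44, an ankyrin gene. It had a signal of 152, with ranks of 1250 in replicate 1 and 798 in replicate 2. The tRNA members had a median signal of 60.9 (39.0 to 155.2), so none was among the 50 strongest members. The B box GTTCGANNC was within 50 bp of the summit in 18 of the 70 (25.7%), against 9 of the 737 other members.

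Small RNA genes of the nucleus were fewer, and most had the summit just upstream. snoRNA genes, whose RNAs guide modification of other RNAs, lay near 22 members (2.73%), against 2.00% of other IDR summits and 0.276% of lower-ranked regions. The share was 1.34% of promoter summits, and that of summits in genes was above that of members. The summit was upstream of the gene in 20 of these 22 and inside none, at a median of 49 bp, and none of the 22 was on X. The strongest was at I:3954, 45 bp upstream of the snoRNA gene Y74C9A.6, with a signal of 183.6 and ranks of 457 in replicate 1 and 636 in replicate 2. It was also the member between a chromosome end and its first protein-coding gene, homt-1. The next was 21 bp upstream of C16D9.10, with a signal of 179 and ranks of 220 in replicate 1 and 698 in replicate 2.

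snRNA genes lay near 7 members, which include the SL2 genes named above, and the share of 0.867% was close to the 0.870% of other IDR summits. The share was 0.589% of promoter summits, and that of summits in genes was above that of members. miRNA genes also lay near 7 members (0.867%), against 0.161% of other IDR summits and 0.398% of lower-ranked regions. These were mir-80 (signal 84.3), mir-53 (71.0), mir-52 (65.4), mir-60 (60.9), mir-75 (42.6), let-7 (42.4), which acts in larval timing, and mir-79 (39.6). The summit was inside the annotated let-7 gene and upstream of the other 6. The let-7 member ranked 14359 in replicate 1 and 3889 in replicate 2, and the mir-52 member ranked 295 in replicate 1 and 2161 in replicate 2. With counts of 7, these shares rest on single loci.

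The remaining classes ranged from unclassified ncRNA genes to pseudogenes. A member near genes of several classes was counted in each, as where an ncRNA gene lay beside a tRNA or snoRNA gene. Genes annotated only as ncRNA lay near 137 members (16.98%), against 11.5% of other IDR summits and 7.81% of lower-ranked regions. The share was 9.90% of promoter summits, and that of summits in genes was slightly above that of members. In the 137 members the summit was inside in 56, upstream in 30 and downstream in 51. After the member at ins-13, the strongest of these was 144 bp upstream of K02F2.11 and 1107 bp upstream of ahcy-1, the gene for S-adenosylhomocysteine hydrolase, with a signal of 299.4 and ranks of 1633 in replicate 1 and 332 in replicate 2. lincRNA genes, for long intergenic RNAs, lay near 11 members (1.36%), against 0.419% of other IDR summits and 1.45% of lower-ranked regions, and the summit was inside in all 11. The strongest was in linc-128, at V:1151496, with a signal of 204.7 and ranks of 125 in replicate 1 and 635 in replicate 2. The nearest protein-coding start was cmd-1, the calmodulin gene, 4775 bp away. piRNA genes lay near 18 members (2.23%), against 1.16% of other IDR summits and 6.58% of lower-ranked regions. Pseudogenes lay near 22 members (2.73%), against 0.419% of other IDR summits and 4.80% of lower-ranked regions. The strongest with a piRNA gene, after the one at B0350.t1, was in 21ur-13200 (signal 139.5), and the strongest with a pseudogene, after the one at R12C12.8, was 176 bp upstream of F07H5.5 (304.3). Antisense RNA genes lay near 4 members (0.496%), against 0.161% of other IDR summits and 0.104% of lower-ranked regions, and the strongest of these were upstream of ifa-3, an intermediate filament gene (51.7), and tax-6, a calcineurin gene (48.4). No member lay within 200 bp of an rRNA gene.

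The median distance of members to the nearest protein-coding start was 2213 bp (310 to 16603 bp), with quartiles of 1377 and 3560 bp. It was 2426 bp over lower-ranked regions that met the same rule and 331 bp over the whole IDR list, which includes the promoter summits. Starts more than 3000 bp away were nearest for 259 members (32.1%), against 38.9% of lower-ranked regions. Starts more than 5000 bp away were nearest for 93 (11.5%), against 16.8%, and more than 10000 bp for 17 (2.11%), against 2.68%. In the first 500 bp beyond the window limit, from 1000 to 1500 bp, lay 27.1% of members, against 19.9% of lower-ranked regions. Members were thus nearer to starts than the lower-ranked regions, mainly through the summits just outside the window.

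**Figure D5:**
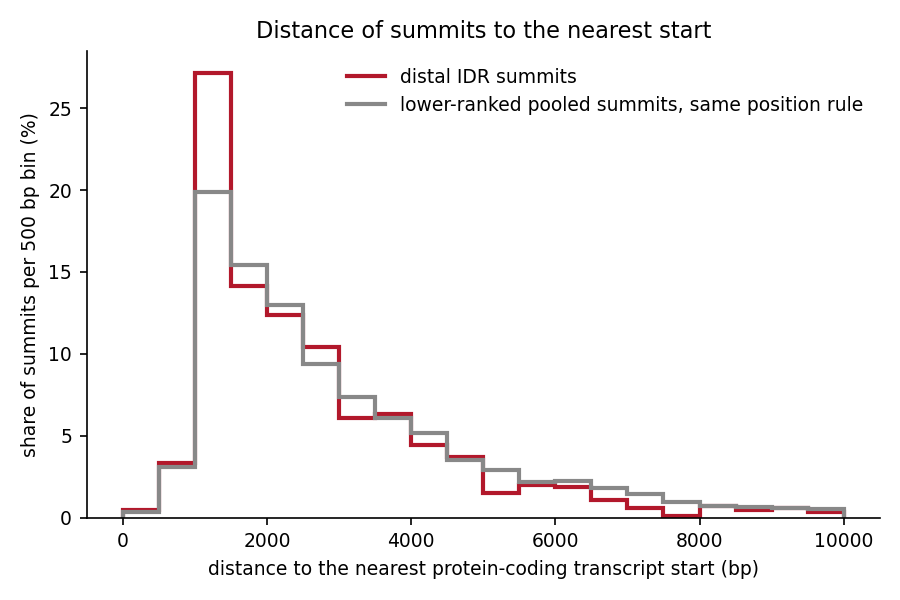
Share of summits per 500 bp bin (y axis, percent) by distance to the nearest protein-coding transcript start (x axis, bp, up to 10000 bp), for distal IDR summits (red) and lower-ranked pooled summits that met the same position rule (grey). The lines differ most in the bin from 1000 to 1500 bp, at 27.1% of distal and 19.9% of lower-ranked summits; few summits lie under 1000 bp because the position rule leaves little sequence there.

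The members nearest inside the limit lay 1003 bp upstream of pbo-6 (signal 45.7), 1006 bp upstream of fbxb-58, an F-box gene (319.2), and 1006 bp upstream of mstr-1 (88.4). The summits nearest outside it lay 1000 bp upstream of sav-1 (signal 39.1), 998 bp upstream of dhs-8, a dehydrogenase gene (110), and 995 bp upstream of acer-1 (41.3). The 3 weakest members were at pkn-1, a protein kinase gene, ZK637.12 and nhr-46, with signals of 38.8, 38.8 and 38.7.

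The farthest members were at III:12528209, 16603 bp from the start of aakg-1, an AMP-activated kinase subunit gene, and at I:2514349, 16215 bp from Y23H5B.5. Both lay past the end of that gene and close to another annotated feature, a pseudogene 78 bp away and a snoRNA gene 38 bp away. The member at III:12528209 also lay 157 bp from the edge of the protein-coding gene sql-1, so a far start did not mean a far gene. A protein-coding gene edge lay within 500 bp of 183 members (22.7%), against 19.9% of lower-ranked regions. Next came the members at IV:14594427 and IV:14603283, 13388 bp upstream of irld-18 and 13320 bp upstream of dmd-6, which share 1 gap of 35563 bp, and the one at IV:5778438, 12855 bp upstream of C31H1.2. Their signals were 127.3 at irld-18, 41.3 at dmd-6 and 89.1 at C31H1.2. The ranks were 389 in replicate 1 and 966 in replicate 2 at irld-18, and 15188 and 3559 at dmd-6 in the same order.

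Of the 807 members, 546 lay upstream of their nearest start (67.7%), against 68.4% of lower-ranked regions, and the other 261 lay past the end of that gene. The gap between the flanking genes had a median of 5831.5 bp for members and 7063 bp for lower-ranked regions. The genes pointed away from the summit on both sides, called divergent, for 241 members (29.9%), in sequence that made up 29.9% of eligible base pairs. They were in tandem for 441 (54.6%), with 53.4% of the sequence, and convergent for 124 (15.4%), with 16.5% of the sequence. Per Mb there were 32.1 divergent, 32.9 tandem and 29.95 convergent members, so orientation and length of sequence went together. Of the convergent members, 41 were on X.

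The 807 members had 703 different nearest genes. Most of these, 625, had 1 member, 59 had 2, 14 had 3, 3 had 4 and 2 had 5. The genes with 5 were mdl-1, a Mad-like helix-loop-helix gene on X, and dmd-6, a DM-domain gene on IV, and both were named after the counts were seen. At mdl-1 the signals were 84.5, 50.5 and 65.4 at 4487, 2753 and 1198 bp upstream of the start, and 211.3 and 90.4 at 1678 and 2380 bp downstream, past the end of the gene. At dmd-6 all 5 lay upstream in 1 gap, with signals from 41.3 to 61.1. Another IDR summit lay within 1000 bp of 96 members (11.9%): for 71 of these it was another member, for 22 a promoter summit and for 3 a summit in a gene.

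Gene families were counted by nearest start, with 12 lists. Nuclear hormone receptor genes, a large family of ligand-regulated transcription factors in worms, were nearest for 33 members (4.09%) at 27 genes, against 1.90% of other IDR summits and 2.82% of lower-ranked regions. The strongest was 2583 bp upstream of nhr-88, with a signal of 280 and ranks of 79 in replicate 1 and 420 in replicate 2. At nhr-46, 3 members with signals from 38.7 to 45.4 lay 5084 to 8058 bp upstream. Insulin-like and neuropeptide genes were nearest for 8 members (0.991%), against 0.129% of other IDR summits and 0.640% of lower-ranked regions, and 3 of these 8 were the members at ins-13.

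Other developmental factors were few. bHLH, T-box, forkhead, Sox, GATA and zinc finger genes were nearest for 9 members (1.12%), against 0.806% of other IDR summits and 1.80% of lower-ranked regions, and the strongest was at hlh-29 (signal 103.4). Homeobox genes were nearest for 3 (0.372%), against 0.0967% of other IDR summits and 0.830% of lower-ranked regions, and the strongest was at ceh-37 (53.0). Heterochronic genes, which time larval development, were nearest for 3 (0.372%), against 0.419% of other IDR summits and 0.259% of lower-ranked regions, led by a member 1423 bp upstream of lin-41 (114.8). The homeobox and bHLH lists made up smaller shares of members than of lower-ranked regions, and larger shares than of other IDR summits. Over the whole IDR list the shares were 0.154% for the homeobox list and 0.870% for the bHLH list. With counts of 3 and 9, these differences rest on few loci.

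Chemoreceptor genes were nearest for 9 members (1.12%), against 0.580% of other IDR summits and 2.06% of lower-ranked regions, and the strongest was at srg-64 (151.1). Collagen genes were nearest for 4 (0.496%), against 0.290% of other IDR summits and 0.622% of lower-ranked regions, led by col-185 (260.6), whose member holds GCGCAGGG. P450, UGT and GST genes, which act in detoxification, were nearest for 4 (0.496%), against 0.999% of other IDR summits and 0.467% of lower-ranked regions, led by ugt-43 (84.3). F-box genes were nearest for 3 (0.372%), against 0.516% of other IDR summits and 0.570% of lower-ranked regions, led by fbxb-58. C-type lectin genes were nearest for 2 (0.248%), against 0.193% of other IDR summits and 0.518% of lower-ranked regions, led by clec-127 (57.4), whose summit lies in the tRNA gene W10G11.t1. Cytosolic ribosomal protein genes were nearest for 0 members and 40 other IDR summits (1.29%), with 1.02% of the whole IDR list and 0.588% of lower-ranked regions. Histone genes were nearest for 0 members and 7 other IDR summits (0.226%), with 0.179% of the whole IDR list and 0.0691% of lower-ranked regions. With so few histone summits in the list, a count of 0 among members shows little.

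The bases around the summit differed between members and the summits in promoter windows. GC content over 101 bp had a median of 42.6% for members, 43.6% for promoter summits and 34.7% for lower-ranked regions, and its part in the shares below was not tested. Sequences were searched on both strands within 50 bp of the summit. Most of the 9 searched first were chosen because an earlier account of these same data reports them. Higher shares of these than in lower-ranked regions are therefore no independent result. ACGCGC was in 4.96% of members, 16.2% of promoter summits and 1.90% of lower-ranked regions. GAGCGC was in 6.82% of members, 15.6% of promoter summits and 2.00% of lower-ranked regions. Both were thus rarer at distal than at promoter summits, and more frequent than in the lower-ranked regions. Of the 441 other IDR summits with ACGCGC, 412 were promoter summits, and of the 430 with GAGCGC, 396 were. Summits in genes thus held both at shares near those of members, so these shares were not particular to distal summits.

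AGACGC and ACGCAG, which overlap in AGACGCAG, were about as frequent at distal as at promoter summits. AGACGC was in 14.4% of members and 12.7% of promoter summits, and ACGCAG in 14.9% and 14.7%. Summits in genes held each of them less often than members and than promoter summits. AGACGCAG was in 86 members (10.7%), against 8.8% of the whole IDR list and 2.37% of lower-ranked regions. It was in 7 of 183 members on X (3.83%) and 79 of 624 on autosomes (12.7%). So AGACGCAG was more frequent in autosomal members, while GCGCAGGG was found within 50 bp of the summit in X members alone, and both sequences were chosen after the windows had been looked at.

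GAGAGA was in 28.5% of members, 19.7% of promoter summits and 10.1% of lower-ranked regions, with 18.6% of members on X and 31.4% on autosomes. CACGTG was in 77 members (9.54%), 4.44% of promoter summits and 2.45% of lower-ranked regions, at a similar share on X (10.4%) and on autosomes (9.29%), and in none of the 70 members with a tRNA gene. ACGT, which CACGTG contains, was in 29.1% of members, 24.8% of promoter summits and 19.6% of lower-ranked regions. GATAAG was in 15.9% of members, 10.3% of promoter summits and 8.42% of lower-ranked regions. Of the 355 other IDR summits with GATAAG, 262 were promoter summits, so its share in genes was slightly above that of members. Summits in genes held each of the other sequences named here at a share between those of promoter summits and members. Shares above those of promoter summits were thus not particular to distal summits. Members with GATAAG had a median signal of 52.7, against 61.0 for those without it, and 7 of the 100 strongest members held it.

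GATAAG differed most between the replicates' own distal summits, with 6.86% in replicate 1 and 16.8% in replicate 2. CACGTG was in 5.85% of those in replicate 1 and 8.96% in replicate 2, GAGCGC in 3.15% and 6.47% in the same order, and ACGCGC in 3.04% and 4.35%. For GCGCAGGG on X the counts were 9 of 249 in replicate 1 and 10 of 182 in replicate 2, with 0 on the autosomes in both. These counts hold for windows of 50 bp to either side of the summit. At 25 bp they were 3 in replicate 1, 7 in replicate 2 and 8 in the IDR list, again with 0 on the autosomes. At 100 bp, 1 of 624 autosomal members held it, beside 12 of 183 on X, and so did 1 of 640 autosomal distal summits in replicate 1 and 2 of 622 in replicate 2. Of the 807 members, 218 (27.01%) held none of the 9 sequences searched first. No members lay within 50000 bp of gmeb-1, gmeb-2 or unc-119, and 1 lay that near to gmeb-3.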

How the data were processed

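ChIP-seq of eGFP-GMEB-1 was done on whole L2 larvae in 2 biological replicates of 1 group. The authors deposited lists of regions: per the readme deposited with them, a relaxed list per replicate that includes background (28693 and 30000 regions), a pooled relaxed list (30000) and the IDR list (3909). Each deposited region has a signal value, a −log10 q value and the offset of its summit from its start. The deposited −log10 q value was 4.09 throughout the IDR list, so the deposited signal set the ranks. Its scale differed between the replicates (maxima of 191.1 and 1996), so it was compared only within a list. The sources used here do not give the caller, aligner, IDR threshold or read numbers.

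The ce11 lists were matched to WBcel235, which is the same assembly, with Ensembl release 115 genes (19973 protein-coding) and RefSeq sequence and names. Positions are 1-based. Distances run from the summit to the nearest protein-coding transcript start. The position code was checked on simulated regions. The members and lists were chosen with earlier results of these data known. Named members are the 15 strongest, the 5 farthest, the 5 best in both replicates, the 3 weakest, the 2 strongest per non-coding biotype, the strongest per gene list, and the 3 on either side of the upstream limit; others are named as chosen later or belong to a count. Promoter windows, strength cutoffs, overlap rules, distances, search windows and each replicate's own list were varied. Python 3.11.15, numpy 2.4.6, pandas 2.3.3, scipy 1.17.1 and matplotlib 3.10.9 were used.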

Additional observations from a re-analysis of the deposited data

How the results depend on the processing

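Of the 46 recomputed values of the main counts, medians and shares, 23 stayed within the spread between the replicates' own lists, the binomial interval or, for counts, 1.5 times. The other 23 moved beyond these limits. A promoter window of 2000 and 500 bp left 518 members, and the stronger 50% of the IDR list left 303, both by construction. A window of 500 and 100 bp gave a median distance of 1528 bp, a tRNA share of 7.18%, and 33.2% divergent and 11.6% convergent members; a window of 2000 and 500 bp gave 3007 bp, 33.8% with a non-coding gene, and 24.9% divergent and 21.8% convergent members. The non-coding share was 25.5% within 100 bp, 37.7% within 500 bp and 43.6% within 1000 bp, 26.8% without pseudogenes and 19.2% without the biotype ncRNA, an alternative added after seeing the data. With starts of non-coding genes also excluded, likewise added later, 572 members were left. In replicate 1, 53.7% of members were found where the summit had to lie in a region, 48.0% at 50% reciprocal overlap and 86.5% in the whole relaxed list; in replicate 2, 88.6% were found at 50% reciprocal overlap and 99.5% in the whole list. Each replicate's own list gave 804 to 889 members, a median distance of 2265 to 2400 bp, a non-coding share of 27.7% to 30.4%, a tRNA share of 6.97% to 8.96% and an X share of the 50 strongest of 38.0% to 44.0%, with the tRNA and X shares added later. Sequence shares rose with the search window by its construction. Replicate 1 recovered fewer members than replicate 2, and depth, which is unknown, limits what can be said of regions missing from a replicate.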
